A study of Mus musculus with 18 samples.

Results

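The genes that encode histone-modifying enzymes and chromatin remodelers were examined in the hippocampus of mice exposed to intermittent hypoxia treatment (IHT) and of mice reared to 12 months. Members were taken by gene symbol, with earlier results of these data known. They were the genes whose symbol begins with Kdm, Kmt, Setd, Hdac, Kat plus a number, Chd plus a number, Smarc, Arid or Ino80. This gave 93 of the 18193 genes that the array annotation names alone on a probe set, a probe set being a group of short probes against a single transcript. They comprised 18 Kdm, 18 Kmt and Setd, 11 Hdac, 8 Kat, 10 Chd, 13 Smarc, 9 Arid and 6 Ino80 genes. The 93 genes had 232 probe sets, of which the brightest on average, on the unlogged scale, stood for each gene. Of the 93, 89 passed the minimum mean signal of 20 over all arrays and were tested among 11656 genes. Arid3b, Ino80b, Kdm4d and Ino80dos, a gene named after Ino80d, did not pass it and were not tested.

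DNA in the nucleus is wound around histones, and the enzymes studied here alter how tightly. Lysine acetyltransferases (Kat) place acetyl groups that loosen chromatin, and histone deacetylases (Hdac) take them off. Lysine methyltransferases (Kmt, Setd) write methyl marks that can go with active or silent genes, and lysine demethylases (Kdm) erase them, using oxygen as a substrate in the jumonji enzymes and oxidising with a flavin in Kdm1a and Kdm1b. CHD, SWI/SNF, ISWI and INO80 remodelers spend ATP to slide, eject or exchange nucleosomes. In the hippocampus, which serves the formation of memory, histone acetylation and its removal, in which Hdac2 takes part, are known for their role in learning.

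RNA from hippocampus of C57Bl/6 mice (C57BL/6J in the study's methods) was hybridised to 18 Affymetrix Mouse Genome 430 2.0 arrays, 3 in each of 6 groups. Per the study's methods the animals were males that entered the experiment at 10 weeks. IHT cycled 1 min of nitrogen, which took the oxygen fraction from 21 to 5%, with 2 min of room air, for 8 h a day. The groups were Ctrl (young mice in normoxia), IH5D (5 days of IHT), IH5DR2 (5 days of IHT, then 64 h of normoxia), Ctrl28 (28 days in normoxia), IH28D (28 days of IHT) and 12 m (untreated mice reared for 12 months). The labels name no transgene or drug in any group. Nothing in the labels says whether the 3 arrays of a group came from separate mice, and the p-values below cover only the variation from array to array.

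Some arrays stood apart. The 12 m array 3 went against its tissue label. Its mean log2 signal over 10 of 10 hippocampal neuron markers was 5.55, against 7.96 to 8.39 on the other arrays, and its mean over 5 of 8 measured markers of neocortex, striatum and septum was 8.21, against 5.74 to 6.61. Fibcd1, a marker of CA1 neurons, lay at 5.05 in signal there. On Ctrl28 array 1 the 3′ probe sets of Actb and Gapdh exceeded the 5′ ones by 2.39 on the log2 scale, a gap that grows as RNA degrades, against 0.822 and 0.966 on the other Ctrl28 arrays, 0.617 to 0.862 in 12 m and 0.328 to 0.535 elsewhere. Markers of choroid plexus, 7 of 7 measured, averaged 3.99 to 5.26 in 12 m, 9.17 to 9.55 in Ctrl28 and 6.00 to 9.42 on the others. In every group array 3 was the lowest, at 6.00, 6.14, 7.19 and 6.42 in Ctrl, IH5D, IH5DR2 and IH28D, 9.17 in Ctrl28 and 3.99 in 12 m. The part of these differences in the results was not tested. Values of single genes are from all 18 arrays, and total counts of members called that use 12 m array 3 or Ctrl28 array 1 are given with and without it.

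A gene was called when its adjusted p (limma, Benjamini-Hochberg over all 11656 genes) was below 0.05. Against Ctrl, the 12 m group had 31 of 89 members higher and 16 lower, IH28D 33 higher and 6 lower, and Ctrl28 18 higher and 24 lower. Of all genes, 21.7% were called higher and 31.6% lower in 12 m, 17.5% and 15.8% in IH28D, and 16.9% and 21% in Ctrl28. The members called higher in 12 m were thus 34.8% of those tested. The shorter treatments called few members, with 6 higher and 1 lower in IH5D (5.4% and 1.12% of all genes) and 5 higher and 0 lower in IH5DR2 (4.38% and 1.24%). IH28D against its own control, Ctrl28, had 13 members higher and 0 lower, where all genes had 6.05% and 2.45%. The comparisons against Ctrl share the 3 Ctrl arrays and are not independent of each other.

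**Figure D1:**
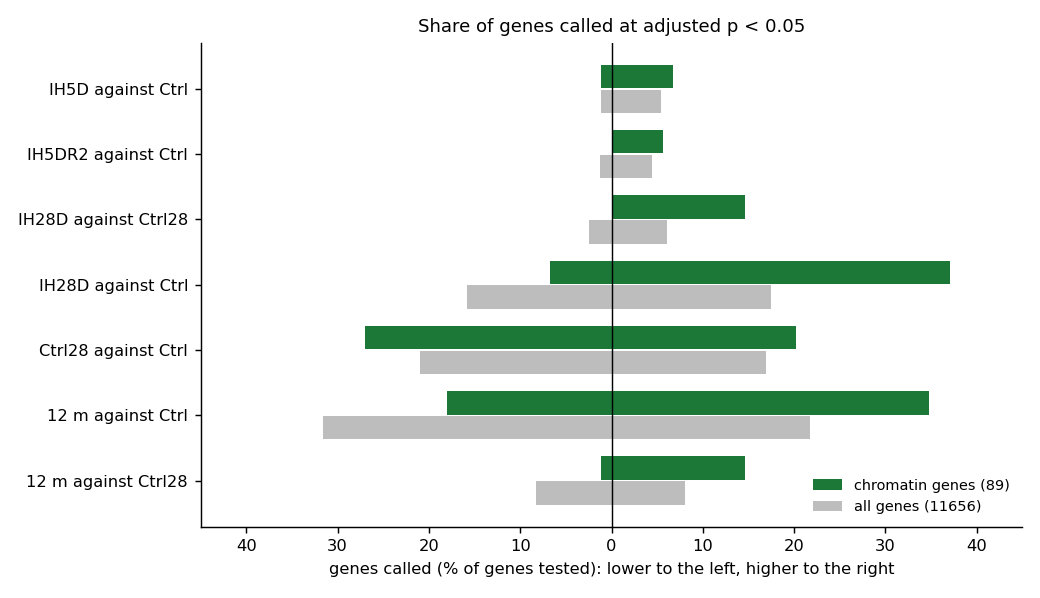
Percent of genes called lower (bars to the left) and higher (bars to the right) in 7 comparisons, for the 89 chromatin genes tested (green) and for all 11656 genes tested (grey). The green bar to the right is the longer of each pair in every comparison, by 1.24 to 19.6 percentage points.

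In 12 m against Ctrl the median log2 difference was 0.07 over the 89 members and -0.23 over all genes. The median over members was below 0 in the Kdm, Hdac, Kat and Smarc families and above 0 in the Kmt and Setd, Chd, Arid and Ino80 families. The groups did not overlap for all 47 members called, nor for 95% of all genes called. Without 12 m array 3, 32 members were higher and 13 lower, beside 20.8% and 28.4% of all genes. Kat7, Kat8, Kdm2b and Smarcd3 were no longer called then, at log2 differences of -0.38, -0.36, -0.35 and -0.48. The differences of the 47 moved by a median of 0.04 and by at most 0.171 (Kat14), and none turned direction. Whether fewer cells of a type or less RNA per cell gave a lower signal cannot be told apart in RNA from a whole tissue.

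**Figure D2:**
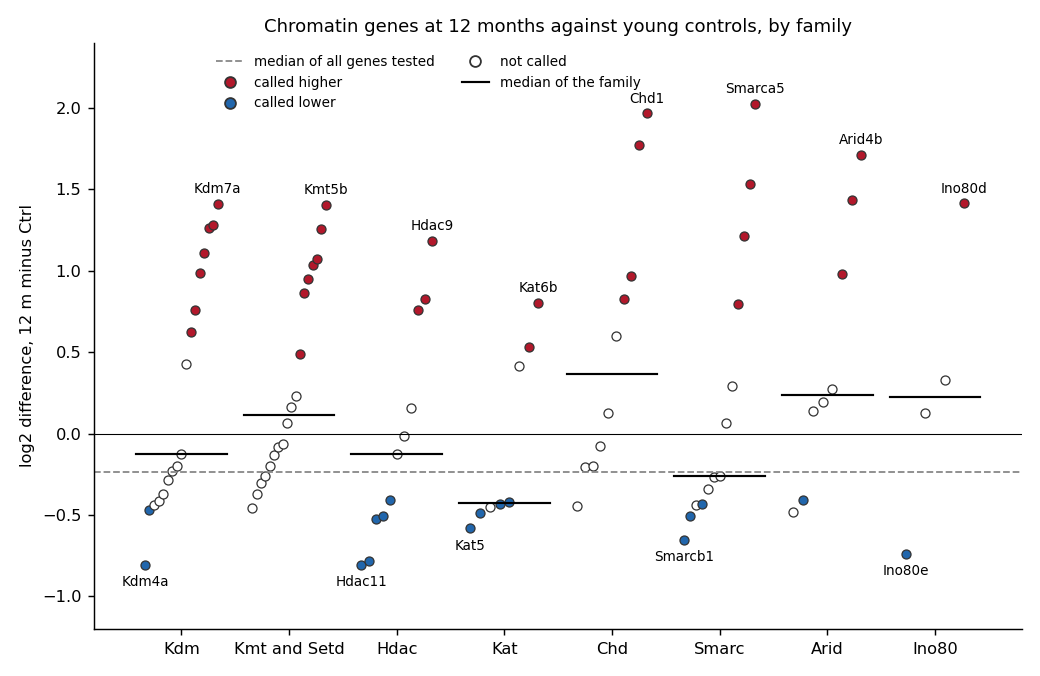
Log2 difference of 12 m minus Ctrl for each of the 89 members tested (points, in rising order within a family), with filled points called at adjusted p below 0.05, black lines the family medians and the dashed line the median of all genes. In the Kmt and Setd and the Chd families filled points lie above 0 only, and in the Hdac and Kat families more lie below 0 than above.

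The deacetylases moved both ways in the 12 m mice, with 3 of 11 higher and 5 lower. The class I enzymes Hdac1 and Hdac2, which sit together in the same corepressor complexes, moved apart. Hdac1 gave signals of 228, 223 and 230.0 in Ctrl and 171, 156 and 147 in 12 m, and Hdac2 gave 308, 193 and 309.7 in Ctrl and 451, 436 and 456 in 12 m. Every 12 m array was thus below every Ctrl array for Hdac1 and above it for Hdac2. The log2 difference was -0.53 ± 0.11 (SE, adjusted p = 9.21e-04) for Hdac1 and 0.76 ± 0.169 (adjusted p = 0.00143) for Hdac2. A further Hdac2 probe set rose by 0.69 (adjusted p = 0.00435).

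Among the other deacetylases, Hdac3, the catalytic subunit of the NCoR corepressor, fell by 0.41 in log2 signal (1.33-fold) and Hdac11, the only class IV enzyme, fell by 0.81 (1.75-fold). The second Hdac11 probe set differed by -0.018 (adjusted p = 0.956). The class IIa enzyme Hdac5, which shuttles between cytoplasm and nucleus in neurons, had signals of 409, 479 and 424 in Ctrl and 287, 232 and 244 in 12 m. That was a log2 difference of -0.78 ± 0.12 (adjusted p = 8.81e-05), with the highest 12 m array well below the lowest Ctrl array. Hdac6, the cytoplasmic tubulin deacetylase, fell by 0.50 (1.42-fold). Within class IIa, Hdac9 rose by 1.18 (2.27-fold) and Hdac7 by 0.83 (1.78-fold) while Hdac4 differed by 0.16 and was not called. A weaker Hdac7 probe set differed by 0.17 (adjusted p = 0.677), so the Hdac7 rise rests on a single probe set.

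Of the 8 acetyltransferases 2 were higher and 4 lower in 12 m mice. Kat5, the TIP60 enzyme of the NuA4 complex, gave 361, 388 and 302 in Ctrl and 236, 192 and 279 in 12 m, a log2 difference of -0.58 ± 0.143 (adjusted p = 0.00286). The log2 signals of Kat7, Kat8 and Kat14 fell by 0.42, 0.43 and 0.49. Kat14 had signals of 183, 187 and 202 in Ctrl against 121, 121 and 172 in 12 m (adjusted p = 0.0389). Kat2a differed by -0.45 and was not called, but its dimmer probe sets differed by -0.61 (adjusted p = 0.00152) and -0.70 (adjusted p = 0.0169). The brighter of these differed by -1.71 in Ctrl28 against Ctrl and by 1.52 in IH28D against Ctrl28. Kat2b, the PCAF coactivator, rose instead, from 189, 161 and 139.8 to 249, 222 and 233 (log2 difference 0.53 ± 0.137, adjusted p = 0.00389). Kat6b, a MOZ family enzyme, rose by 0.80 (1.74-fold), and its 12 m arrays at 234, 233 and 285 lay above its Ctrl arrays at 179.8, 121 and 136.

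Of the 18 Kmt and Setd genes 7 were higher and 0 lower in 12 m mice. They included Kmt2a, Kmt2c and Kmt2e of the MLL group, which acts at promoters and enhancers. Kmt2a had 182, 117 and 124.5 in Ctrl and 269, 315 and 269.9 in 12 m, and rose by 1.03 ± 0.31 in log2 signal (adjusted p = 0.0102). Kmt2c rose by 1.07 (2.1-fold) and Kmt2e by 0.95 (1.93-fold). Kmt2b, the closest relative of Kmt2a, had 224, 214 and 206 in Ctrl and 169.8, 167 and 186 in 12 m (log2 difference -0.30 ± 0.141), and it was not called (adjusted p = 0.0783). Setd2, which places the methyl mark found along transcribed gene bodies, rose from 90.1, 82.3 and 69.5 to 176, 207 and 193 (1.26 ± 0.214, adjusted p = 1.96e-04). Kmt5b, a methyltransferase of histone H4, rose by 1.40 (2.64-fold), and Setd7 rose by 0.86. Setdb1, a writer of silencing marks, differed by -0.08 (adjusted p = 0.703).

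Of the 17 demethylases tested 7 were higher and 2 lower in 12 m mice. Kdm7a gave 112, 91.2 and 86.2 in Ctrl and 308, 245 and 218 in 12 m, a rise of 1.41 ± 0.265 (adjusted p = 4.08e-04). Its other probe set rose by 1.80 (adjusted p = 0.00111). Kdm6a, the X-linked demethylase UTX that opposes polycomb, rose by 1.28 ± 0.378 (2.42-fold), and Kdm5a, an eraser of histone methylation at promoters, by 1.26 ± 0.303 (2.4-fold). The flavin enzyme Kdm1b had low signals of 28.3, 22.7 and 18.7 in Ctrl and 48.8, 54.0 and 45.7 in 12 m, and rose by 1.11 ± 0.227. Kdm4a, which acts on a mark of silent chromatin, fell from 166, 154 and 139 to 80.9, 89.2 and 92.6 (-0.80 ± 0.167, adjusted p = 8.74e-04), with no overlap between the groups. Kdm5c and Kdm6b, both studied in neurodevelopment, were not called, at log2 differences of -0.42 and -0.23.

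Of the 10 Chd genes 4 were higher and 0 lower. Chd1, which travels with elongating RNA polymerase, had low signals of 17.1, 19.7 and 21.3 in Ctrl and 73.8, 72.9 and 79.3 in 12 m. The log2 difference of 1.97 ± 0.259 (adjusted p = 2.87e-05) was the largest of the family, but its second probe set rose less, by 0.89, and was not called (adjusted p = 0.0677). Chd9 rose by 1.77 ± 0.275, from 80.3, 47.2 and 63.5 to 219, 218 and 200.4. Chd2 and Chd6 rose by 0.97 and 0.83 (1.95-fold and 1.77-fold). The autism-linked Chd8 differed by 0.13 (adjusted p = 0.444), but its dimmer probe set rose by 1.47 (adjusted p = 2.32e-04). Chd3, an ATPase of the NuRD complex, differed by -0.44 (adjusted p = 0.119).

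The Smarc family joins the catalytic and accessory subunits of SWI/SNF with the ISWI ATPases, and also holds Smarcad1 and Smarcal1, which are neither. Of its 13 members 4 were higher, Smarcad1 among them, and 3 lower. Both ISWI ATPases rose. Smarca5 (SNF2H) had 95.2, 68.6 and 61.3 in Ctrl and 309, 334 and 260.2 in 12 m, a log2 difference of 2.02 ± 0.335 (4.06-fold, adjusted p = 1.62e-04), the largest among the 89 members. Its other probe sets rose by 1.73 and 1.85. Smarca1 (SNF2L) rose by 1.53 ± 0.212, with 66.2, 59.6 and 87.9 in Ctrl and 211, 197 and 200.5 in 12 m.

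The alternative SWI/SNF ATPases moved apart. Smarca2 (BRM) rose from 438, 370.1 and 323 to 623, 636 and 687 (0.79 ± 0.17, adjusted p = 0.00109), and Smarca4 (BRG1) fell from 768, 758 and 853 to 599, 551 and 615 (-0.43 ± 0.138, adjusted p = 0.0149). A weaker Smarca2 probe set differed by 0.43 and was not called (adjusted p = 0.224), and the other Smarca4 probe set fell by 0.68 (adjusted p = 0.00635). The core subunit Smarcb1 fell by 0.65 (1.57-fold) and Smarcd3, a subunit of the neuronal form, by 0.51 (1.42-fold). The scaffold subunits Smarcc1 and Smarcc2 were not called, at 0.29 and -0.34.

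**Figure D3:**
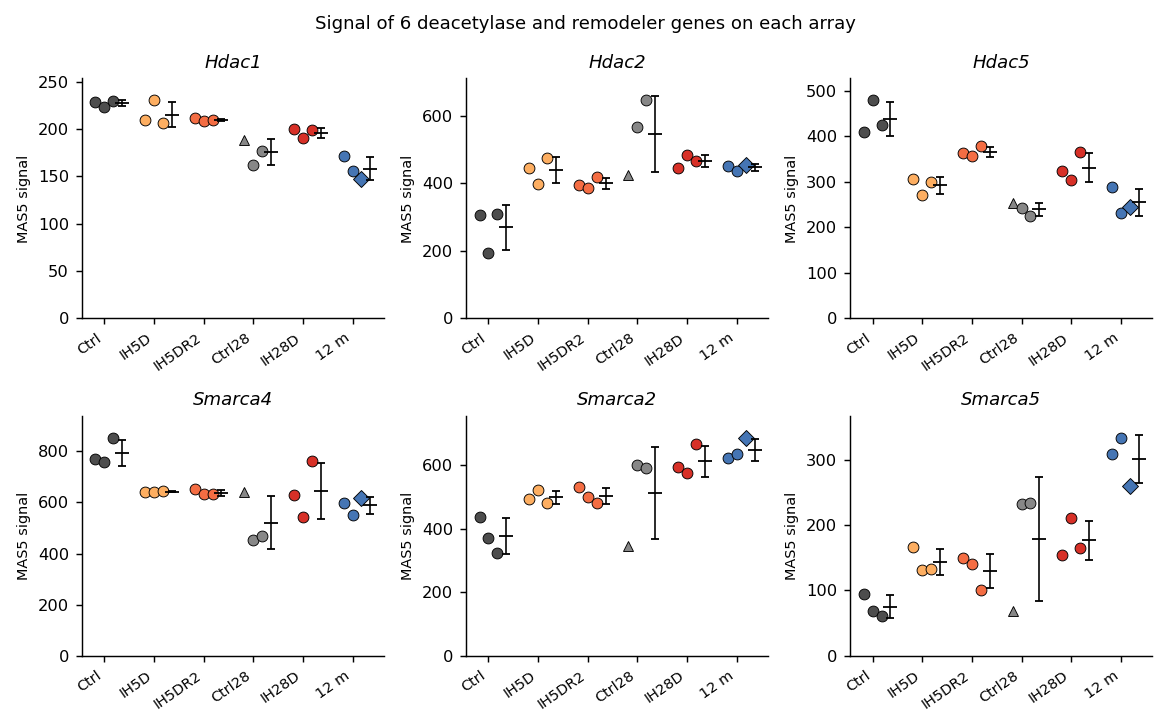
MAS5 signal (linear scale from 0) of Hdac1, Hdac2, Hdac5, Smarca4, Smarca2 and Smarca5 on each of the 18 arrays, with mean ± SD (n = 3) beside each group; the diamond is 12 m array 3 and the triangle Ctrl28 array 1. Hdac1 and Smarca4 are lower, and Hdac2, Smarca2 and Smarca5 higher, on all 12 m arrays than on all Ctrl arrays.

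Among the 8 ARID genes tested, whose products bind DNA, 3 were higher and 1 lower. Arid4b and Arid4a, subunits of the Sin3 deacetylase complex, rose by 1.71 ± 0.294 and 1.44 ± 0.298 (3.28-fold and 2.71-fold). Arid4b had 103, 80.2 and 112 in Ctrl and 329, 335 and 297 in 12 m, and all 3 of its further probe sets also rose. Arid2, of the PBAF form of SWI/SNF, rose by 0.98 (1.97-fold), while Arid1a, of the BAF form, fell from 649, 676 and 740.4 to 543, 482 and 532 (-0.41 ± 0.107, adjusted p = 0.0044). Arid1b, the alternative to Arid1a, differed by 0.19 and was not called. Of the 4 INO80 genes tested Ino80d rose by 1.41 (2.66-fold) and Ino80e fell by 0.74 (1.67-fold), while the ATPase gene Ino80 itself differed by 0.33.

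The members that rose in 12 m mice lay in longer genes than those that fell. In the RefSeq annotation of GRCm38.p6 the median gene span was 80.5 kb for the 31 that rose and 29.2 kb for the 16 that fell, beside 40.6 kb for the 42 not called and 17.1 kb for all protein-coding genes. The median Ctrl signal differed between these sets of members too, at 80.63, 322.6 and 129 in the same order. The spans of all genes called higher or lower were not compared. The span is given as a description, without a test. Smarca5, with the largest rise, spans 39.5 kb of chromosome 8 (80699943 to 80739459). In a fit of all probe sets, 28 members that had further probe sets were called, and for none of them did a further probe set pass in the opposite direction. Over all 69 further probe sets of 49 members, 59 differed in 12 m against Ctrl in the same direction as the chosen one. The count was 55 in IH5D and 57 in Ctrl28 against Ctrl, and 38 in IH28D and 41 in 12 m against Ctrl28. In 12 m against Ctrl a further probe set was not called and differed by 0.42 for Arid2, 0.24 for Kmt2c, 0.59 for Kmt5b and -0.26 for Smarcb1, and by -0.69 for Smarcad1, a remodeler whose chosen probe set rose by 1.22.

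IHT for 5 days called 7 members. Chd1, Hdac2, Hdac7, Kdm1b, Kmt2c and Smarca1 rose, and Hdac5 fell. Hdac2 gave 447, 397 and 474 in IH5D, all above the highest Ctrl array at 309.7, a log2 difference of 0.73 ± 0.169 (1.66-fold, adjusted p = 0.0246). Hdac5 gave 306, 272 and 299, all below the lowest Ctrl array at 409 (-0.58 ± 0.12, adjusted p = 0.0159). Kdm1b gave 41.5, 42.2 and 46.7 against 28.3, 22.7 and 18.7 (0.92 ± 0.227, adjusted p = 0.0292). The other rises were of 0.95 for Chd1, 0.87 for Hdac7, 0.78 for Kmt2c and 0.78 for Smarca1, each with groups that did not overlap. Nor did the groups overlap for 99.4% of all genes called higher and for 41.4% of all genes tested. The further probe sets of Chd1 and Hdac7 differed by 0.07 and 0.19, and neither was called. The dimmer Chd8 probe set rose by 1.2004 (adjusted p = 0.0177), while the chosen one differed by 0.08.

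These calls depended on the fit. No member was called when Ctrl array 2, Ctrl array 3, IH5D array 1 or IH5D array 3 was left out, 1 when IH5D array 2 was, and 15 when Ctrl array 1 was. Of all genes 0 to 0.154% were called in the first 4 of these fits, 1.99% without IH5D array 2 and 11.4% without Ctrl array 1. Without Ctrl28 array 1, which enters through the shared estimate of the spread, 24 members were higher and 5 lower (14.2% and 9.19% of all genes). The arrays of these groups with the same replicate number deviated together, so the replicate number was also taken as a block. In all 18 arrays the block left 3 higher and 1 lower (3.23% and 0.489% of all genes), and Chd1, Kmt2c and Smarca1 missed the threshold with adjusted p of 0.053, 0.0523 and 0.0555. In the 6 arrays of these groups alone the block gave 29 higher and 7 lower (16.7% and 18.4%), with the 7 members above among them, and Smarca5 rose by 0.95 there (adjusted p = 6.25e-04).

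The region just before the start of Smarca1, Hdac5 and Smarca5 is shown since Smarca1 rose and Hdac5 fell in both IH5D and 12 m mice and Smarca5 had the largest rise in 12 m mice. They were chosen after these values were seen, among genes with a single window that no annotated gene reaches. Each window holds the 250 bases before the annotated start (RefSeq, GRCm38.p6), 5′ to 3′ along the gene. Capitals mark ACGTG or GCGTG on either strand, the core letters that hypoxia-inducible factors are known to bind. The Smarca1 window is chrX:47892614-47892863, that of Hdac5 chr11:102230173-102230422 and that of Smarca5 chr8:80739460-80739709, all on the minus strand.
Smarca1: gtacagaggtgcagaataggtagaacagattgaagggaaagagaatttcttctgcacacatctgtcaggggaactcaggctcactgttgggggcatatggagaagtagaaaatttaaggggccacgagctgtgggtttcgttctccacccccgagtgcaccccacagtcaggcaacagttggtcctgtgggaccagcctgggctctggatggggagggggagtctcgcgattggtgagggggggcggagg
Hdac5: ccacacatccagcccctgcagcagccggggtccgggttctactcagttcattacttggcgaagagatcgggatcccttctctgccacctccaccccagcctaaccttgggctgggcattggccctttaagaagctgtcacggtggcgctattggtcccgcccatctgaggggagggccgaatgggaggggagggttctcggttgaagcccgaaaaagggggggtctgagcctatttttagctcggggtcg
Smarca5: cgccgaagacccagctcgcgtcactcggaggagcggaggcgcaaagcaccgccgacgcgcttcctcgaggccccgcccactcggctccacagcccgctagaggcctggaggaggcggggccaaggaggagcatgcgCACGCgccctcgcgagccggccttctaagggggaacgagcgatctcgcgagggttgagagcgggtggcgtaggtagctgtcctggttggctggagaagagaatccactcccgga
The Smarca5 window held 1 match and those of Smarca1 and Hdac5 held 0. Of all 32851 windows of this length 38.6% held a match, and of the 97 windows of 71 members 49.5% did. The median GC content was 61.2% in the members' windows and 52.4% in all windows. A match is a run of letters and not a measured binding site.

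After 64 h of normoxia, 5 members were called against Ctrl, all higher. They were Hdac2, Hdac7, Kdm1b, Kmt5a and Kmt2e. The groups overlapped for Kdm1b, whose IH5DR2 arrays at 27.8, 44.97 and 55.7 reached below the highest Ctrl array at 28.3, and for none of the other 4. Nor did the groups overlap for 99.2% of all genes called higher and for 40.8% of all genes tested. Hdac2 gave 396, 387 and 419 in IH5DR2 (0.60 ± 0.169, adjusted p = 0.0469) and Kmt5a, the monomethyltransferase of histone H4, gave 227, 188 and 230.3 against 154, 134 and 124 on the Ctrl arrays (0.64 ± 0.155, adjusted p = 0.0289). The Hdac5 arrays at 363, 357 and 379 lay between the IH5D and the Ctrl arrays, and the difference from Ctrl of -0.25 was not called (adjusted p = 0.174). IH5DR2 against IH5D called 0 members and 0% of all genes in either direction, with 2 members at an unadjusted p below 0.05 in limma and 7 in the methods' t-test, beside 3.59% and 6.01% of all genes. For Hdac5 that difference was 0.33 ± 0.12. Without Ctrl28 array 1, 18 members were higher and 3 lower in IH5DR2 against Ctrl (13.7% and 8.6%). Leaving out each other array in turn gave between 0 and 11, with 0 without Ctrl array 2, Ctrl array 3, IH5DR2 array 2 or IH5DR2 array 3. The share of all genes is not given for these further fits, so their counts show only how the calls depend on the fit.

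IHT for 28 days called 13 members against Ctrl28, all higher, and the median log2 difference was 0.25 over the members and 0.02 over all genes. They were Hdac4, Hdac5, Hdac6 and Hdac7 of the deacetylases, Kmt2b, Kmt5a and Setd1b of the methyltransferases, the demethylase Kdm4b, Chd4 of the NuRD complex, Smarcc2, Arid1a, Arid4a and Arid4b. Kmt2b gave 134, 122 and 95.7 in Ctrl28 and 185, 212 and 229.6 in IH28D (0.84 ± 0.141, adjusted p = 0.0013). Hdac7 had 17.5, 27.5 and 25.2 in Ctrl28 and 56.3, 65.9 and 54.4 in IH28D, and rose by 1.35 ± 0.225 (2.55-fold), with its second probe set at 0.03. Setd1b, which like Kmt2b methylates histones at promoters, rose by 0.71 ± 0.156 (1.64-fold), with its second probe set at 0.32 and not called. The Chd4 rise of 0.79 rests on 1 of 3 probe sets, with the others at 0.11 and -0.13. The groups did not overlap for any of the 13, nor for 96.2% of all genes called.

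Without Ctrl28 array 1, 17 members were higher and 2 lower in this comparison (11.4% and 4.19% of all genes). Arid4a, Arid4b, Hdac4 and Kmt5a were not called then, at 0.58, 0.57, 0.49 and 0.38, and Kmt2b (0.94), Setd1b (0.86), Kdm4b (0.79) and Smarcc2 (0.90) were. Without IH28D array 3 the count was 6, of which 5 were higher (2.98% higher and 0.987% lower of all genes), and with each array centred on its median it was 9, of which 8 were higher (4.22% and 4.26%). In a fit of the arrays of these groups alone 0 members were called (0.292% and 0.00858%).

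Several calls at 28 days differed with the control. Against Ctrl, Kmt2b, Setd1b and Kdm4b in IH28D differed by -0.04, 0.03 and -0.01 and were not called, and Hdac5 and Hdac6 were lower, by -0.40 and -0.51, where against Ctrl28 they were higher by 0.46 and 0.53. The count against Ctrl fell from 39 to 19 without Ctrl array 2 (9.41% of all genes higher and 4.86% lower) and to 21 without IH28D array 2 (10.1% and 6.44%). Hdac7, Arid4a, Arid4b and Kmt5a were called higher against both controls, with differences against Ctrl of 0.84, 1.29, 1.33 and 0.998. Against Ctrl28 the calls of Arid4a, Arid4b and Kmt5a were not stable, holding in 12, 4 and 4 of 26 alternative fits with differences down to 0.14, 0.23 and 0.21, while that of Hdac7 held in 24. Hdac6, for instance, gave 228, 231 and 244 on the Ctrl arrays, 122, 124 and 98.5 in Ctrl28 and 146, 161 and 189.6 in IH28D, which lay between the controls. The Kdm4b signals were 83.8, 105 and 104 in Ctrl, 40.7, 58.9 and 53.0 in Ctrl28 and 93.8, 95.8 and 99.8 in IH28D, so that Ctrl28 stood alone as the low group.

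**Figure D4:**
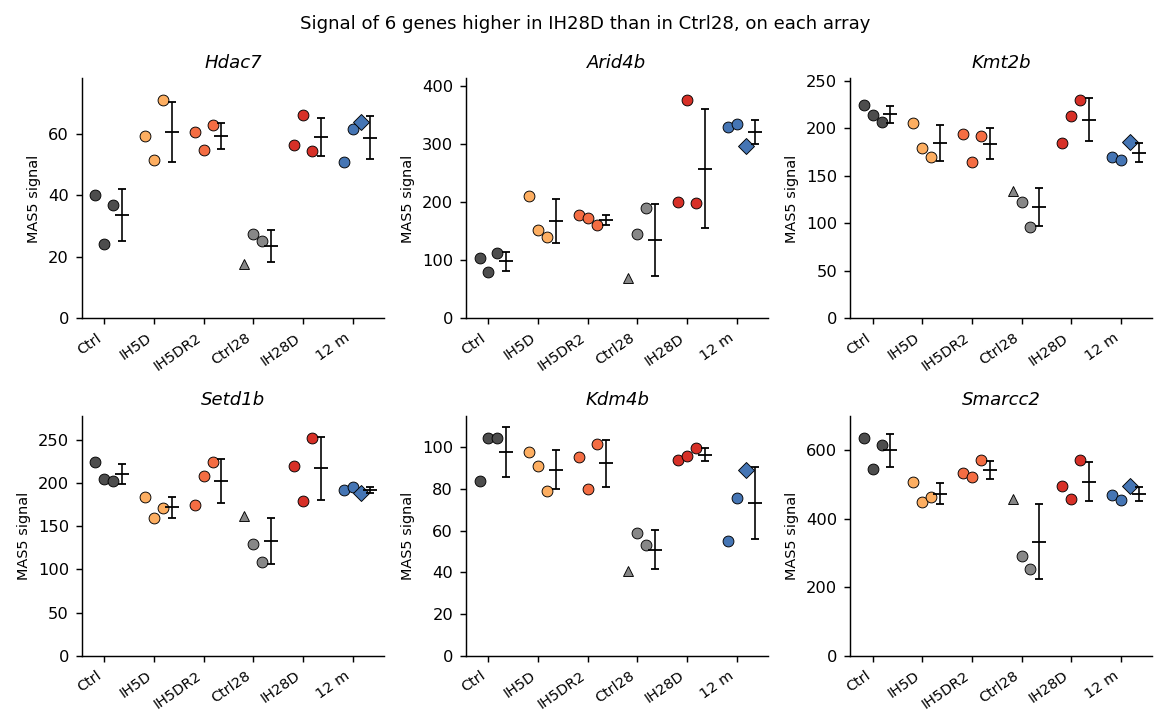
MAS5 signal (linear scale from 0) of Hdac7, Arid4b, Kmt2b, Setd1b, Kdm4b and Smarcc2 on each of the 18 arrays, with mean ± SD (n = 3) beside each group; the triangle is Ctrl28 array 1 and the diamond 12 m array 3. Kmt2b, Setd1b and Kdm4b lie lower in Ctrl28 than on the Ctrl and IH28D arrays, and Hdac7 lies higher in IH28D than on both controls.

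The controls themselves were compared since Ctrl28 mice differ from Ctrl by 28 days of rearing. Of the members, 18 were higher and 24 lower in Ctrl28, the falls including 6 Hdac, 6 Smarc and 4 Kmt and Setd genes. Hdac6 fell by 1.04 (2.06-fold, adjusted p = 2.34e-05), Smarcd1, a subunit of SWI/SNF, by 1.04 and Kdm4b by 0.95, and Kdm1b rose by 1.39 and Hdac2 by 1.03. The groups did not overlap for 11 of the 18 and 21 of the 24, beside 72.4% and 86.3% of all genes called. Without Ctrl28 array 1, 31 were higher and 28 lower (23.8% and 29.5% of all genes), with Hdac6 at -1.09, Smarcd1 at -1.46, Kdm4b at -0.80, Kdm1b at 1.42 and Hdac2 at 1.199. Without Ctrl28 array 3, 8 were higher and 16 lower (10.3% and 14%). Kdm2b at 0.43 and Chd4 at -0.50 turned direction as the mean of all their probe sets, at -0.043 and 0.113, and the other Kdm2b probe set fell by 0.52 (adjusted p = 0.0153). The records of the Ctrl28 arrays were numbered after those of the other groups, and a batch of that kind and the 28 days of rearing cannot be told apart.

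Against Ctrl28 the 12 m group had 13 members higher and 1 lower, beside 8.04% and 8.3% of all genes. Arid4b, Hdac7, Arid4a, Setd2, Chd9 and Smarca1 were higher by 1.37, 1.34, 1.17, 1.10, 1.03 and 1.02, and the demethylase Kdm2b, which recruits polycomb to unmethylated promoters, was lower by -0.91. The other Kdm2b probe set differed by -0.19 and was not called. The further probe sets of Chd9 and Hdac7 differed by -0.65 and 0.49, and neither was called, while those of Arid4a and Arid4b were all higher. Hdac6 was higher in 12 m than in Ctrl28, by 0.53, and lower than in Ctrl, by -0.50. Without 12 m array 3, 10 were higher and 1 lower (5.46% and 4.37%), with Setd1b, Smarcad1 and Smarcc2 no longer called. Without Ctrl28 array 1, 16 were higher and 1 lower (9.45% and 7.86%). Without 12 m array 2, 7 were higher and 2 lower (5.53% and 5.15%), and a fit of these groups alone called 0 (0.884% and 0.592%).

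The effect of 28 days of IHT against Ctrl28 was set against that of 5 days against Ctrl in a contrast of its own. It called 7 members as more positive and 2 as more negative at 28 days, beside 6.57% and 3.08% of all genes. The more positive members were Kdm4b (1.07 ± 0.267), Kmt2b (1.06 ± 0.2), Hdac5 (1.04 ± 0.169), Setd1b (1.003 ± 0.221), Smarcc2 (0.99 ± 0.234), Arid1a (0.76 ± 0.151) and Hdac6 (0.70 ± 0.186). Hdac2 (-0.94 ± 0.239) and Chd6, a remodeler of the CHD family (-0.89 ± 0.242), were the more negative. The contrast also holds the difference of Ctrl28 from Ctrl, with its sign turned. That difference was -0.95 for Kdm4b, -0.89 for Kmt2b, -0.86 for Hdac5, -0.68 for Setd1b and -0.89 for Smarcc2. It was -0.47 for Arid1a, -1.04 for Hdac6, 1.03 for Hdac2 and 0.77 for Chd6. The rest of the contrast is the difference of IH28D from IH5D. In size the control difference exceeded the contrast for Hdac6 and Hdac2, and was smaller for the other members called. These calls therefore do not isolate the length of IHT. Where the control difference came from was not tested. Without Ctrl28 array 1 the contrast called 18 and 13 (15.9% and 12.7%), and without IH5D array 3, 5 and 0 (3.97% and 1.13%).

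Across the arrays, the mean standardized level of a family separated some groups. The Hdac mean was -0.52 to -0.96 in Ctrl28 and -0.30 to 0.36 on the others. The Kmt and Setd mean was 0.40 to 0.67 in IH28D and below that elsewhere, at -0.60 to 0.28. On 19 members the IH28D mean was the highest of the 6 groups, where IH28D was highest for 8% of all genes, and Ctrl was the lowest on 40 members (29.2% of all genes). IH28D array 3 had the highest mean of all arrays in every family but Hdac, from 0.55 in the Kat to 1.11 in the Arid family.

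**Figure D5:**
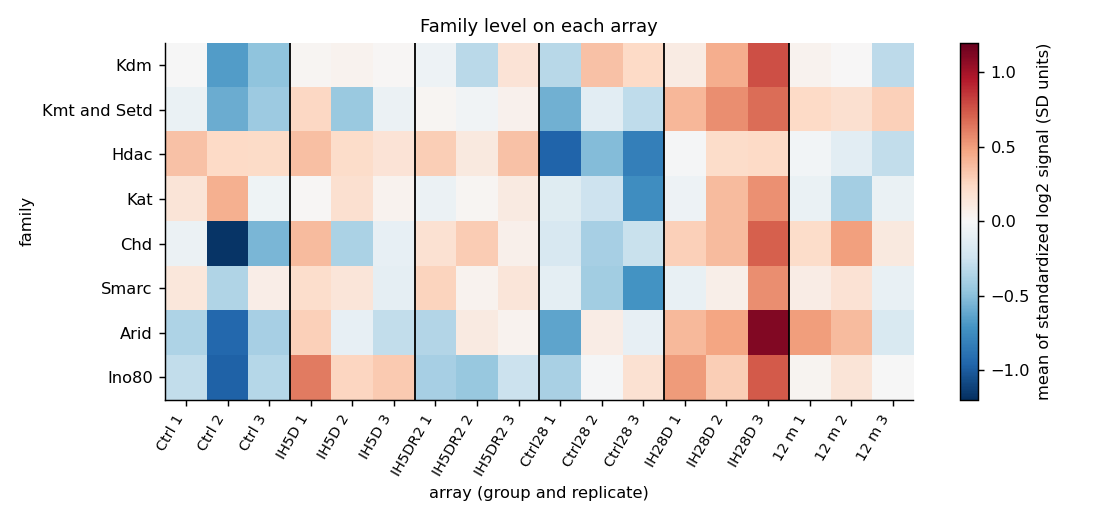
Mean over the tested members of each family of the log2 signal, standardized over the 18 arrays (colour, in SD units), for each array (columns, grouped by condition). The Hdac row is lowest on the 3 Ctrl28 arrays and the Arid row highest on IH28D array 3, at 1.11.

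Genes of the same complexes with other names were counted from fixed lists, 132 of 149 of them tested. In 12 m against Ctrl 36 were higher and 43 lower, beside the 21.7% and 31.6% of all genes. Without 12 m array 3, 36 were higher and 33 lower, beside 20.8% and 28.4%, and 65 of the 79 were still called in the same direction. Of the polycomb list, whose complexes silence developmental genes, 11 of 22 were higher and 3 lower, with Bmi1 up by 1.60 ± 0.234, Pcgf5 by 1.23 and Phc3 by 1.14. Of the ISWI partners 4 of 7 were higher and 2 lower, with Rsf1 up by 1.66 (from a mean of 49.7 to 157), Baz2b by 1.26 and Bptf by 0.71. Rsf1 and Bptf bind the Smarca5 and Smarca1 ATPases. The other SWI/SNF subunits had 2 of 17 higher, Phf10 at 1.36 and Pbrm1 at 1.40, both of the PBAF form like Arid2, and 4 lower, including the neuronal subunits Dpf1 (-0.78) and Actl6b (-0.73). Without 12 m array 3 this list had 5 higher and 1 lower, and Actl6b was not called (-0.63, adjusted p = 0.0529).

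Of the 10 partners of the MLL enzymes tested, 8 were lower and 1 higher in 12 m against Ctrl. The core subunit Dpy30 differed by -0.76, Rbbp5 by -0.52, Men1 by -0.75 and Psip1 by 1.41. Without 12 m array 3, 5 partners were lower and 1 higher. Among the enzymes Kmt2a and Kmt2c were higher. Kmt2b, Kmt2d and their relatives Setd1a and Setd1b differed by -0.30, -0.20, -0.37 and -0.13 and were not called. Of the 8 arginine methyltransferases 7 were lower and 0 higher, led by Prmt5 (-0.90 ± 0.113, from a mean of 296 to 158), Prmt1 (-0.90) and Prmt6 (-1.37). The sirtuins, deacetylases that use NAD, had 1 of 7 higher and 3 lower, with Sirt1 at 1.90 ± 0.291 (from 35.1 to 127), Sirt2 at -0.85 and Sirt3 at -0.59. The INO80, SRCAP and p400 partners had 6 of 15 lower, Mcrs1 (-0.83) and Dmap1 (-0.64) among them, and 1 higher, Uchl5 (1.40). Of the NuRD, Sin3 and CoREST corepressors 4 of 17 were higher and 6 lower, with Tbl1xr1 at 0.88, Sin3b at -0.82 and Rbbp4 at -0.54.

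The acetyltransferases with other names had 5 of 12 higher and 1 lower, with Ncoa2 at 1.17, Taf1 at 1.56 and Ing3 at 0.81. The further lysine methyltransferases had 4 of 10 higher and 2 lower, with Nsd2 at 1.10, and with Smyd2 (-0.67) and Ehmt2, the G9a enzyme (-0.57), the lower ones. Of the DNA methylation genes 3 of 7 were higher and 1 lower. Tet2, a dioxygenase that oxidises methylcytosine, rose by 1.38 ± 0.187 (from a mean of 77.6 to 201), Mbd4 by 1.06 and the methyltransferase Dnmt3a by 0.76. Tet3, a relative of Tet2, was the lower one, at -1.77 ± 0.561 from a low mean of 34.3 to 12.0. In IH5D against Ctrl these lists had 8 genes higher and 2 lower, beside 5.4% and 1.12% of all genes. They had 17 higher and 4 lower in IH28D against Ctrl28, beside 6.05% and 2.45%. The counts without Ctrl28 array 1 were 25 and 13 in IH5D and 28 and 5 in IH28D. In IH5D against Ctrl no gene of the whole table was called without Ctrl array 2 or Ctrl array 3.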

How the data were processed

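RNA of mouse hippocampus was measured on 18 arrays, 3 in each of 6 groups, and groups were taken from the treatment labels. The authors deposited 1 table of log2 values that, per the labels, came from MAS5, Affymetrix's summary of each probe set. Unlogged, every array had a 2% trimmed mean of 100.03 to 100.04, so the values had been scaled per array. The table holds 45101 probe sets, 64 of them controls, and no probe-level data were used here. Names came from the platform annotation, with 34945 probe sets naming a single gene, and 2 probe sets of several genes of these families were left out. Symbols were updated by Entrez ID through RefSeq.

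From these values each gene was represented by its probe set of highest mean unlogged signal, and probe sets with a mean of 20 or less were left out. Group means were fitted to the log2 values of all 18 arrays with limma 3.58.1 in R 4.3.3 (lmFit, eBayes with trend, 12 residual degrees of freedom), and p-values were adjusted by Benjamini-Hochberg over 11656 genes. A Welch t-test of the groups compared, scaling, probe set choice, the replicate block, a covariate for the 3′ to 5′ gap, array weights and leaving out each array were alternatives. The study's methods name Welch's ANOVA for the arrays. The fit was tested on simulated data. Precision is limited by 3 arrays per group, since an array gives no count depth; the median signal per array was 18.1 to 24.3.

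The members, the families and the lists of other chromatin genes were chosen with earlier results of these data known. Values on each array are given for up to 4 members per family (the largest rises and falls called in 12 m against Ctrl without overlap and with the brighter group averaging 50 or more, otherwise those of smallest p), for the 4 members of smallest p in each comparison, and for 20 members with a known role in memory or neurodevelopment, of which some are given by their difference alone. Further members are named for the calls they gained or lost.

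Replicate numbers are shared between the groups. For IH5D and Ctrl the deviations of same-numbered arrays from their group means correlated at 0.153, 0.289 and 0.239, so the numbers were taken to pair them. Over all 45 same-numbered pairs the correlations ran from -0.365 to 0.402 (median 0.02, 13 above 0.1), and 6 of 18 arrays correlated best with their own number, so that no pairing was taken elsewhere. Same-numbered IH5DR2 arrays did correlate with Ctrl at 0.0253, 0.115 and 0.277, and with IH5D at 0.00267, 0.233 and 0.169. The highest value, 0.402, was between IH5DR2 array 3 and IH28D array 3.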

Additional observations from a re-analysis of the deposited data

Results flagged for a closer look

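The effect of IHT against the matched control differed between 28 and 5 days for 9 members, by limma's test of the difference itself (adjusted p below 0.05). The log2 effect was more positive at 28 days for Kdm4b (1.067), Kmt2b (1.064), Hdac5 (1.04), Setd1b (1.003), Smarcc2 (0.993), Arid1a (0.764) and Hdac6 (0.700). It was more negative for Hdac2 (-0.942) and Chd6 (-0.885). For Hdac5 the effect was -0.58 at 5 days and 0.46 at 28 days, both called. Each of the 9 was also called in the difference without Ctrl28 array 1. For all 9 the difference of Ctrl28 from Ctrl, which enters this test with its sign turned, went the opposite way. A batch of the Ctrl28 arrays and the 28 days of rearing cannot be told apart in it.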

How the results depend on the processing

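The counts in this section are of members alone, without the share of all genes called in the same fit where none is given above. They show how the calls depend on the fit and not a trait of the members. Counts of members called kept within 1.5 times of those reported except as follows. Without a minimum signal 3 were called in IH5D and 1 in IH5DR2 against Ctrl. In IH5DR2, 3 were called with median centring, 1 with quantile normalization, 3 with the mean of all probe sets and 3 without a variance trend. Fitting only the arrays compared called 21 in IH5D, 16 in IH5DR2, 14 in Ctrl28 against Ctrl, and 0 in IH28D and in 12 m against Ctrl28. With a covariate for the 3′ to 5′ gap 31 were called in IH5D, 22 in IH5DR2, 21 in IH28D against Ctrl28 and 34 in the difference between 28 and 5 days. With array weights the counts were 37 in IH5D, 33 in IH5DR2, 34 in IH28D and 31 in 12 m against Ctrl28, 65 in Ctrl28 against Ctrl and 39 in the difference. The Welch t-test on unlogged signals after Benjamini-Hochberg called 18 members in 12 m against Ctrl and 0 in the other comparisons. Unadjusted, it called 19 in IH5D, 18 in IH5DR2, 22 in Ctrl28 against Ctrl and 7 in IH5DR2 against IH5D. The replicate block in all arrays called 4 in IH5D and 1 in IH5DR2, and changed no other count by over 1.5 times; the block in the IH5D and Ctrl arrays alone, chosen after seeing the data, called 36.

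Leaving out each array in turn gave 0 to 29 members in IH5D, 0 to 21 in IH5DR2, 40 to 57 in 12 m and 19 to 50 in IH28D against Ctrl, 6 to 19 in IH28D and 9 to 21 in 12 m against Ctrl28, 24 to 59 in Ctrl28 against Ctrl, 5 to 31 in the difference, and 0 throughout in IH5DR2 against IH5D. Of the members called, Kdm2b and Chd4 in Ctrl28 against Ctrl turned direction with the mean of all probe sets, at -0.043 and 0.113, against 0.43 and -0.50 with the chosen probe set, and no other member called turned direction under any alternative run. The causes were not tested. With 3 arrays per group, small differences were not detectable, and low signals such as those of Chd1 and Hdac7 lie near the minimum.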
